A study of Mus musculus with 68 samples.

Results

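The secreted and surface components of Wnt signalling were followed across 12 groups of mouse intestine and intestinal tumours. Their genes were taken by symbol alone, as the numbered Wnt, Fzd, Sfrp, Dkk and Rspo families together with Lrp5 and Lrp6, and 43 of the 23356 rows of the deposited expression table matched. They were 19 Wnt ligands, 10 Frizzled receptors, 2 co-receptors, 4 R-spondins, 4 secreted Frizzled-related proteins and 4 Dickkopf proteins. All 43 were found in the mouse gene annotation under the same names. Of these, 28 reached 1 FPKM (fragments per kilobase of transcript, scaled to the size of the library) in at least 2 specimens and were tested, and 14 stayed under 1 FPKM in every specimen. The remaining gene, Dkk4, passed 1 FPKM in 1 specimen and was not tested.

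Wnt ligands are lipid-modified secreted proteins that bind a Frizzled receptor and the co-receptor Lrp5 or Lrp6 and so stabilise beta-catenin, which acts with TCF and LEF factors on target genes. In the intestine the pathway maintains crypt stem cells, with ligands made by Paneth cells and by stromal cells under the crypt. R-spondins amplify the signal by protecting Frizzled receptors from removal, secreted Frizzled-related proteins bind ligands outside the cell, and several Dickkopf proteins block the co-receptors.

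The study asked which genes and pathways go with Cftr deficiency in mice with wildtype Apc and in mice with the Min allele of Apc, which disables a negative regulator of beta-catenin and causes intestinal tumours. The mice had a C57BL/6 background and were 3 months old, with no treatment named, and polyadenylated RNA of 23 specimens was sequenced. Apc wildtype mice gave 2 Cftr wildtype and 2 Cftr knockout specimens each of colon and of duodenum, and other knockout mice gave 1 colon tumour and 2 duodenal tumours, of which the second came from the animal with the colon tumour. From ApcMin mice, Cftr wildtypes and Cftr knockouts each contributed 2 tumours of the colon and 2 of the ileum, and Cftr heterozygotes, which the labels call knockdown, contributed 2 of the colon and 2 of the duodenum. In the Apc wildtype knockouts a floxed Cftr allele was deleted by Villin-Cre, which acts in the epithelium, so stromal cells keep the gene. Which Cftr allele or Cre the ApcMin animals carried is stated in none of the sources. The labels number 10 animals for the 23 specimens, while the design text speaks of 23 mice, and both ApcMin tumours of a given genotype and organ carry 1 animal number, so by the labels genotype and animal cannot be told apart there. Whether tumours were cut free of muscle is not given.

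Sequencing was done in 2 runs, with 15 specimens in run 1, 19 in run 2 and 11 in both. Heterozygous tumours were read in run 1 and the other ApcMin tumours in run 2. The file holds FPKM and no counts, and relative depth recovered from the steps between low values ranged 1.84-fold over the columns. The wildtype duodenum specimens differed by about as much as lanes of one library did, at 0.987 times the lane spread in run 1 and 1.05 times in run 2, against 1.96 to 5.48 times in other groups, and were counted as 1 sample in the tests. Cftr itself was at 21.7 to 32.0 FPKM in normal tissue of wildtypes and at 25.9 to 47.2 FPKM in normal tissue of knockouts. ApcMin colon tumours labelled knockout held 14.2 and 21.4 FPKM and those labelled wildtype 18.1 and 24.8 FPKM, and the ileum tumours 40.0 and 31.2 against 23.4 and 27.3 FPKM. Cftr was thus not lower in normal tissue labelled knockout, and since a floxed deletion can leave the other exons transcribed, gene-level FPKM does not check those labels. Knockout, below, is the label. Small-intestinal markers (Sis, Lct, Slc15a1 and Gata4) summed to 1215 to 1366 FPKM in duodenum and to 35.1 to 124 FPKM in colon. Some libraries stood apart. The second heterozygous duodenal tumour held ileum markers (Fabp6 and Slc10a2) at a summed 13910 FPKM, against 2.15 in the first and 65.2 to 10140 in the ileum tumours. Knockout duodenum 1 held pancreatic acinar markers at 1401 FPKM, against 7.39 to 11.9 FPKM in the other duodena. The female transcript Xist was at 0.024 to 0.461 FPKM in normal specimens, at 24.04 to 55.6 FPKM in ApcMin tumours and at 34.2 FPKM in the first Apc wildtype duodenal tumour. Between ApcMin tumours and normal tissue, sex and Apc genotype therefore cannot be told apart. In bulk tissue, fewer cells of a type and less RNA per cell cannot be told apart either.

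Promoter sequences were searched because TCF and LEF factors bind the core CTTTGAT or CTTTGTT, and those of 4 members whose levels changed between tissues are printed. RefSeq windows on GRCm38.p6, running from 250 bases before to 50 bases after a start site, were held for 27 of the 43 members, and Wnt10a and Wnt5a were not among them. Both spellings were searched on both strands. They occurred in 5 of the 30 windows of these members (16.7%) and in 9.33% of all 32851 windows of the table. Those 5 were windows of Dkk1, Fzd7, Wnt3, Wnt5b and Wnt11, of which Dkk1 and Wnt11 were not tested and Fzd7 passed in no comparison. Wnt3 held 1 match, beginning 19 bases into the transcript on the strand shown, and the Wnt6, Wnt16 and Dkk2 windows held none. The windows lie at chr11:103773925-103774224, chr1:74771642-74771941, chr6:22287977-22288276 and chr3:132085042-132085341 in the order printed, all on the plus strand. Capitals mark the match.
Wnt3: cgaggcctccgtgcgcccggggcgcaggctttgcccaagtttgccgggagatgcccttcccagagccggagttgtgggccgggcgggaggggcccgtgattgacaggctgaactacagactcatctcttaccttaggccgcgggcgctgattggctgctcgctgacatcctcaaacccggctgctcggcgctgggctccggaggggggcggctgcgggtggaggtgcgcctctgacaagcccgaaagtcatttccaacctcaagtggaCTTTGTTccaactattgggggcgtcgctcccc
Wnt6: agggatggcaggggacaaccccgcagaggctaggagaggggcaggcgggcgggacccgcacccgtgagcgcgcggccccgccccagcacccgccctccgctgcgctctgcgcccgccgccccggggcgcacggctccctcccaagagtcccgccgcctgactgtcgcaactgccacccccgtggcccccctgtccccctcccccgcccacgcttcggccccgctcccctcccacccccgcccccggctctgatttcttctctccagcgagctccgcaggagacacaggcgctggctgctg
Wnt16: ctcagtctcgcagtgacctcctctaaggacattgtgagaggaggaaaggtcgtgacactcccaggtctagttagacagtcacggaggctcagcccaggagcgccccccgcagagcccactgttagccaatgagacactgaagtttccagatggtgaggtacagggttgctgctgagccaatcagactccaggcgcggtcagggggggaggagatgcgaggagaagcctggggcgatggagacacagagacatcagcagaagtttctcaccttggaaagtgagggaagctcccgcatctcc
Dkk2: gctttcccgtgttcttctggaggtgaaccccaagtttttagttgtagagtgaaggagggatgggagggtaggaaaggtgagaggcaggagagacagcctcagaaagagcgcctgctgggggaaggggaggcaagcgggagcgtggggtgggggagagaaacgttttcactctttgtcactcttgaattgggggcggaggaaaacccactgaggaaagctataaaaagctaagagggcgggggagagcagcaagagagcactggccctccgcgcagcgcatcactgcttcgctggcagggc

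The heat map of the 28 tested members shows where each was found. Over the 8 normal specimens the highest medians on the FPKM scale, which is per length, were those of Fzd5, Lrp5, Lrp6, Dkk3, Sfrp1 and Fzd1. Normal colon had Lrp6 at 25.1 to 25.6 FPKM, Fzd5 at 17.8 to 24.9 FPKM and Lrp5 at 16.9 to 18.4 FPKM. Normal duodenum had Fzd5 at 27.0 to 30.9 FPKM, Lrp5 at 20.6 to 23.4 FPKM and Lrp6 at 10.8 to 13.5 FPKM. Ligands were scarcer. The highest was Wnt2b or Wnt5a in colon, at 3.62 to 7.12 and 3.82 to 4.21 FPKM, whose ranges overlapped. In duodenum it was Wnt4 in 3 of the 4 specimens and Wnt2b in knockout duodenum 2, at 2.67 FPKM against 2.48 FPKM of Wnt4.

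**Figure D1:**
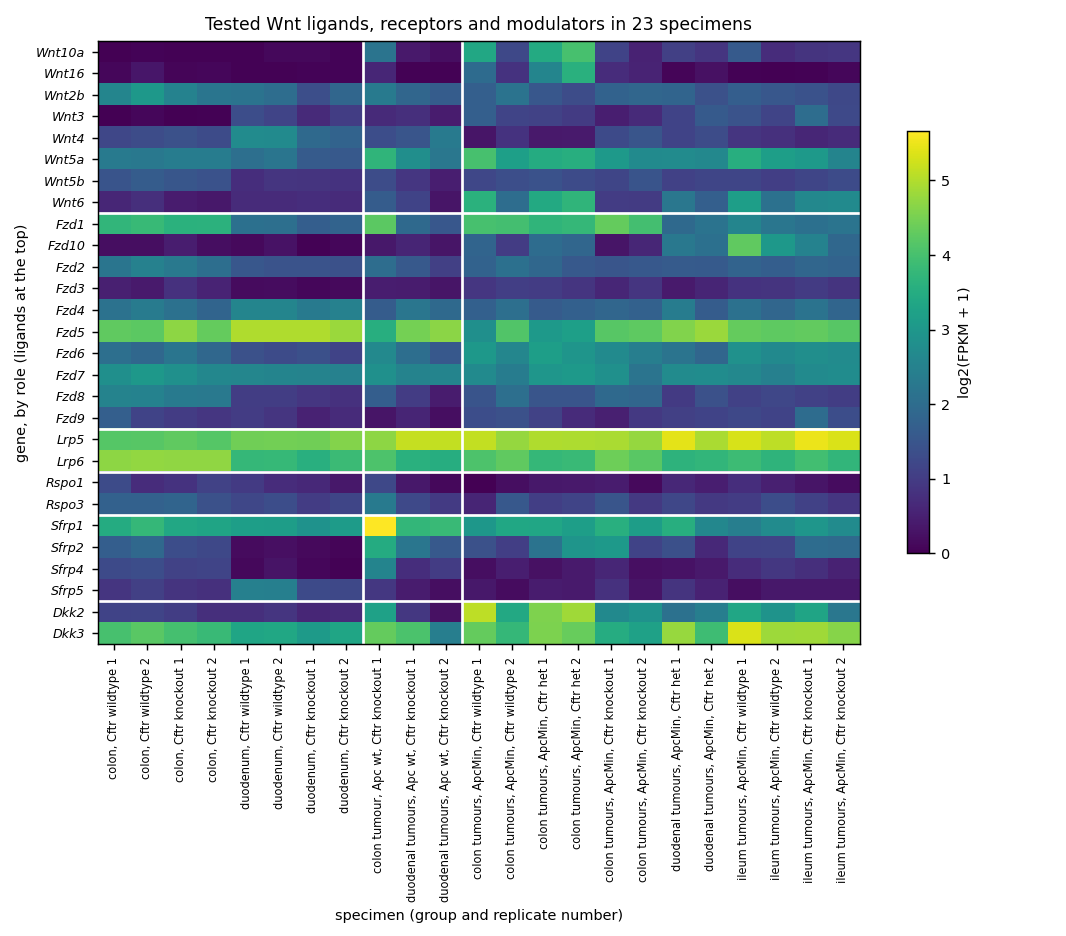
Level of each tested member as log2(FPKM + 1), 28 genes in rows ordered by role and 23 specimens in columns. White lines separate roles, and separate normal tissue, Apc wildtype tumours and ApcMin tumours. Dkk2, Wnt6 and Wnt10a are low in the 8 normal specimens and high in several ApcMin tumours.

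Tumours and normal tissue were compared first. In every test a gene was said to rise or fall where its adjusted p was under 0.05 in limma, over 14098 genes, and changes are differences of log2(FPKM + 1). In the heterozygous ApcMin colon tumours, set against all normal colon in run 1, 21 of 28 members passed, with 11 higher and 10 lower. Of all genes tested 53.2% passed, with 26.8% higher and 26.5% lower. In the ApcMin colon tumours with wildtype or knockout Cftr, set against normal colon in run 2, 19 of 28 passed, with 10 higher and 9 lower, where 45.4% of all genes passed, 22.3% higher and 23.1% lower. The members' median change was -0.05 and -0.23 in these comparisons, against -0.02 and 0.00 over all genes. Rises and falls were about equal in number. By the labels the heterozygous colon tumours came from a single animal, as did the other ApcMin colon tumours of each Cftr genotype. The tests count tumours of the same animal as separate samples, so their p does not measure the spread between tumour-bearing animals.

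Among ligands the rises were in Wnt10a, Wnt6, Wnt16, Wnt3 and Wnt5a. Wnt10a, a ligand of canonical signalling, was at 0.0127 and 0.0378 FPKM in wildtype colon and at 0.0219 and 0.0213 FPKM in knockout colon. The heterozygous colon tumours held 9.96 and 15.2 FPKM, the wildtype tumours 9.55 and 1.34 FPKM and the knockout tumours 1.20 and 0.458 FPKM. All 6 tumours lay above all 4 colon specimens, and the first wildtype tumour stood with the heterozygous ones. The change was 3.69 (SE 0.17) in the heterozygous tumours, with an adjusted p of 3.634e-06 in limma, and 1.56 (SE 0.38) in the others, with an adjusted p of 0.00686.

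Wnt6 lies 6.2 kb from Wnt10a on chromosome 1 and is read from the same strand. Colon held Wnt6 at 0.513 and 0.699 FPKM in wildtypes and at 0.350 and 0.280 FPKM in knockouts. The heterozygous colon tumours held 9.90 and 12.1 FPKM, the wildtype tumours 11.3 and 3.07 FPKM and the knockout tumours 1.02 and 0.975 FPKM. The first wildtype tumour again sat with the heterozygous ones, and the knockout tumours were nearest to colon without overlapping it. Wnt6 rose by 3.03 (SE 0.21) in heterozygous tumours and by 1.38 (SE 0.34) in the others, with adjusted p of 2.883e-05 and 0.00719 in limma.

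Wnt16 showed the same order. Its levels in colon were 0.0634 and 0.273 FPKM in wildtypes and 0.0520 and 0.0639 FPKM in knockouts. In colon tumours they were 4.92 and 11.1 FPKM in heterozygotes, 2.97 and 0.768 FPKM in wildtypes and 0.637 and 0.478 FPKM in knockouts. No colon tumour overlapped colon. The rises were 2.91 (SE 0.24) and 0.89 (SE 0.20), at adjusted p of 5.729e-05 and 0.00470 in limma. All 8 small-intestinal tumours held 0.187 FPKM or less.

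Wnt3, a ligand made by Paneth cells, was nearly absent from colon, at 0.0063 to 0.0671 FPKM, and was at 0.394 to 2.29 FPKM in the 6 ApcMin colon tumours. It rose by 1.00 (SE 0.18) in heterozygous tumours and by 0.97 (SE 0.18) in the others, with adjusted p of 0.00208 and 0.00177 in limma. The 6 Paneth cell markers, of which 1 was at 0 in knockout colon 2, summed to 650 to 6937 FPKM in these tumours and to 579 to 1602 FPKM in colon, and their part in the change was not tested. Wnt5a, a mainly non-canonical ligand of stromal cells, was at 3.82 to 4.21 FPKM in colon and at 5.52 to 15.2 FPKM in these tumours, with rises of 1.18 (SE 0.12) and 0.91 (SE 0.21) at adjusted p of 0.00016 and 0.00513 in limma.

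Wnt2b, a stromal ligand, fell in both comparisons. It was at 3.62 to 7.12 FPKM in colon and at 1.497 to 3.45 FPKM in ApcMin colon tumours, below every colon specimen. The changes were -1.08 (SE 0.21) and -0.77 (SE 0.15), with adjusted p of 0.00311 and 0.00240 in limma. Wnt4 fell in the heterozygous tumours, to 0.307 and 0.323 FPKM from 1.29 to 1.66 FPKM in colon, by -0.91 (SE 0.24) at an adjusted p of 0.0117 in limma. In the other ApcMin colon tumours it was at 0.243 to 1.83 FPKM, which overlapped colon and did not pass.

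**Figure D2:**
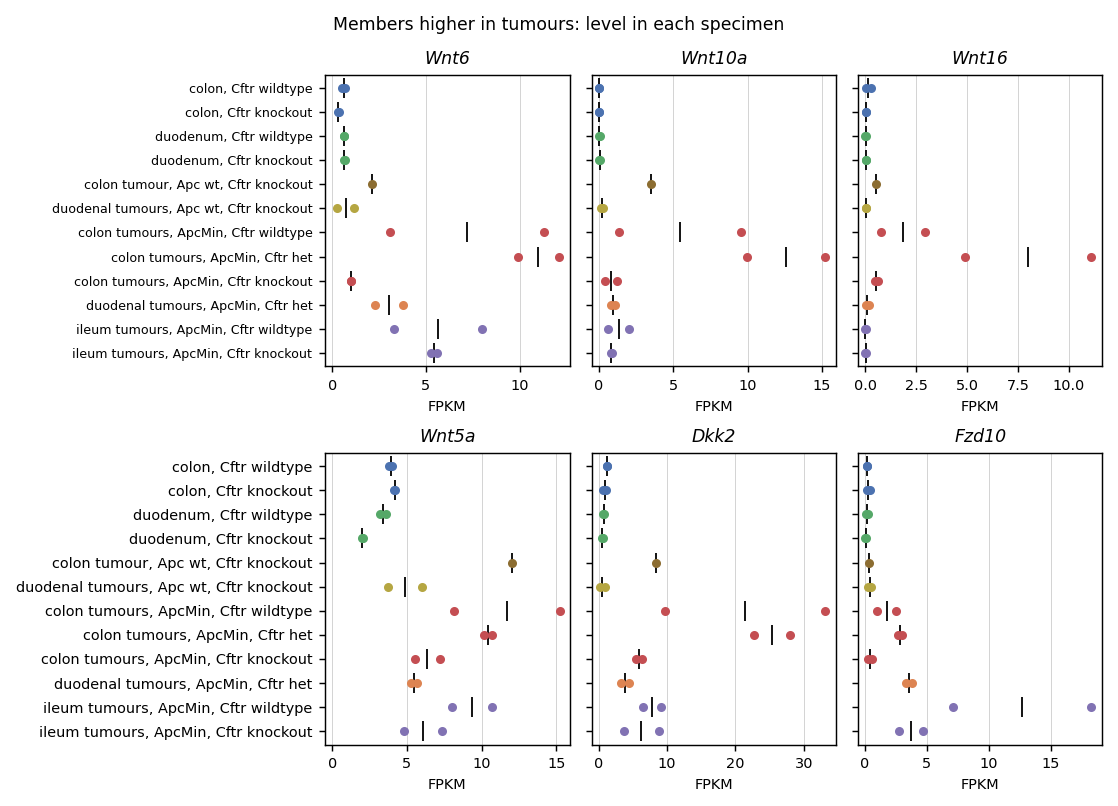
FPKM of 6 members in each of the 12 groups. Points are specimens and the black tick is the group mean. Wnt16 stays at 0.187 FPKM or less in the small-intestinal tumours, while Fzd10 reaches its highest value, 18.3 FPKM, in an ileum tumour.

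Dkk2 rose among the Dickkopf genes. Dickkopf 2 binds Lrp5 and Lrp6. Colon held 1.21 and 1.22 FPKM in wildtypes and 1.05 and 0.701 FPKM in knockouts. Colon tumours held 22.7 and 28.0 FPKM in heterozygotes, 33.1 and 9.73 FPKM in wildtypes and 5.48 and 6.36 FPKM in knockouts, with no overlap with colon. Dkk2 rose by 3.69 (SE 0.22) in heterozygous tumours and by 2.50 (SE 0.33) in the others, with adjusted p of 1.533e-05 and 0.000349 in limma. Dkk3, a related protein that is not a co-receptor blocker, was at 13.2 to 17.6 FPKM in colon and at 8.48 to 22.3 FPKM in these tumours and did not pass. Dkk1 was listed at 0 in 22 of 23 specimens.

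Frizzled receptors moved in both directions in ApcMin colon tumours. Fzd10 rose in the heterozygous tumours, to 2.98 and 2.63 FPKM from 0.158 to 0.362 FPKM in colon, by 1.65 (SE 0.12) at an adjusted p of 3.827e-05 in limma. In wildtype tumours it was at 2.52 and 0.995 FPKM and in knockout tumours at 0.245 and 0.528 FPKM, and it did not pass in that comparison. Fzd6 was at 2.70 to 3.61 FPKM in colon and at 4.37 to 7.96 FPKM in the 6 tumours, above every colon specimen, and rose by 1.06 (SE 0.18) and 0.66 (SE 0.14) at adjusted p of 0.00168 and 0.00324 in limma. Fzd3 rose from 0.331 to 0.756 FPKM in colon to 0.527 to 1.08 FPKM in the tumours, with overlap, and Fzd1 rose in the wildtype and knockout tumours, by 0.36 (SE 0.11), from 11.2 to 13.1 FPKM in colon to 14.6 to 18.9 FPKM.

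Fzd5, the receptor of Paneth cell maturation, fell. It was at 17.8 to 24.9 FPKM in colon, at 7.34 and 8.16 FPKM in heterozygous tumours, at 6.11 and 16.3 FPKM in wildtype tumours and at 17.3 and 18.2 FPKM in knockout tumours. The knockout tumours overlapped colon and the heterozygous ones did not. Its change was -1.20 (SE 0.13) in heterozygous tumours, at an adjusted p of 0.000164 in limma, and -0.59 (SE 0.22) in the others, at 0.0466. Fzd8 fell from 3.86 to 4.75 FPKM in colon to 1.77 to 3.19 FPKM, by -0.90 (SE 0.17) and -0.59 (SE 0.15). Fzd2 fell from 3.11 to 4.57 FPKM to 1.81 to 3.26 FPKM, by -0.51 (SE 0.17) and -0.53 (SE 0.12). Fzd7, the stem cell receptor, and Fzd4 and Fzd9 were called in none of the 12 comparisons, with levels of 3.55 to 7.31, 2.06 to 4.95 and 0.161 to 3.02 FPKM over all 23 specimens.

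The co-receptors moved oppositely. Lrp5 rose from 16.9 to 18.4 FPKM in colon to 26.0 to 34.0 FPKM in ApcMin colon tumours, by 0.79 (SE 0.12) in heterozygous tumours and 0.68 (SE 0.10) in the others, at adjusted p of 0.00112 and 0.000511 in limma. Lrp6 fell from 25.1 to 25.6 FPKM to 12.6 to 20.2 FPKM, by -0.86 (SE 0.09) and -0.54 (SE 0.09), at adjusted p of 0.000192 and 0.00109. Neither overlapped colon. The order of the co-receptors turned over: Lrp6 was above Lrp5 in each of the 4 colon specimens and Lrp5 above Lrp6 in each of the 6 tumours.

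Of the 4 R-spondins only Rspo1 and Rspo3 were tested, and both fell, and of the 4 decoys Sfrp4 and Sfrp5 fell. Rspo3, the main stromal R-spondin, was at 1.65 to 2.52 FPKM in colon and at 0.498 to 1.93 FPKM in ApcMin colon tumours, and Rspo1 was at 0.637 to 1.47 FPKM in colon and at 0.352 FPKM or less in those tumours. Rspo3 changed by -0.55 (SE 0.16) and -0.57 (SE 0.20), and Rspo1 by -0.54 (SE 0.16) and -0.85 (SE 0.16). Sfrp4 fell from 1.17 to 1.51 FPKM to 0.156 to 0.531 FPKM, by -0.82 (SE 0.10) and -0.89 (SE 0.12), at adjusted p of 0.00029 and 0.000379 in limma. Sfrp5 fell by -0.52 (SE 0.16) and -0.42 (SE 0.13). Sfrp2 rose in the heterozygous tumours, by 1.08 (SE 0.29), from 1.34 to 2.79 FPKM in colon to 3.46 and 6.79 FPKM, and Sfrp1 was not called at 7.02 to 10.9 FPKM against 8.83 to 12.7 FPKM in colon.

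Markers of other cells moved with these comparisons. The 8 smooth muscle markers, all detected in every specimen, summed to 2379 to 2998 FPKM in colon and to 117 to 974 FPKM in ApcMin colon tumours. The 8 fibroblast markers summed to 393.5 to 498 FPKM and to 336 to 425 FPKM. Enteric neuron and glia markers (8, of which 2 were at 0 in the first wildtype tumour) went from 21.3 to 32.5 FPKM to 5.46 to 16.9 FPKM, and the 6 proliferation markers from 119 to 179 FPKM to 252 to 367 FPKM. Their part in the changes of the members was not tested. Leaving out 1 specimen at a time kept 14 of the 21 calls in heterozygous tumours and 14 of the 19 in the others. Calls of Fzd2, Fzd3, Rspo1, Rspo3, Sfrp2, Sfrp5 and Wnt4 in heterozygous tumours were lost without at least 1 of knockout colon 1 or 2, wildtype colon 2 or either tumour (adjusted p 0.0511 to 0.230). In the other tumours, calls of Fzd1, Fzd3, Fzd5, Rspo3 and Sfrp5 were each lost without at least 1 of the 8 specimens compared (adjusted p 0.0527 to 0.168).

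The rest of the Wnt pathway was counted from a list of 41 other genes, 38 of them tested. In heterozygous colon tumours 19 rose and 5 fell, and in the other ApcMin colon tumours 15 rose and 5 fell. The smallest p belonged in heterozygous tumours to Apcdd1, Rnf43, Wif1 and Ptk7, all higher. Wif1, a secreted Wnt-binding inhibitor, was at 0.811 to 1.06 FPKM in colon and at 106.5 and 102 FPKM in heterozygous tumours, and rose by 5.77 (SE 0.46). Apcdd1, a membrane inhibitor, rose by 4.54 (SE 0.20), and Rnf43, the ligase that removes Frizzled receptors, by 2.35 (SE 0.12). In the wildtype and knockout tumours the smallest p belonged to Wif1, Apcdd1 and Rnf43, which rose, and to Frzb, a secreted Wnt-binding protein, which fell by -0.82 (SE 0.09).

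**Figure D3:**
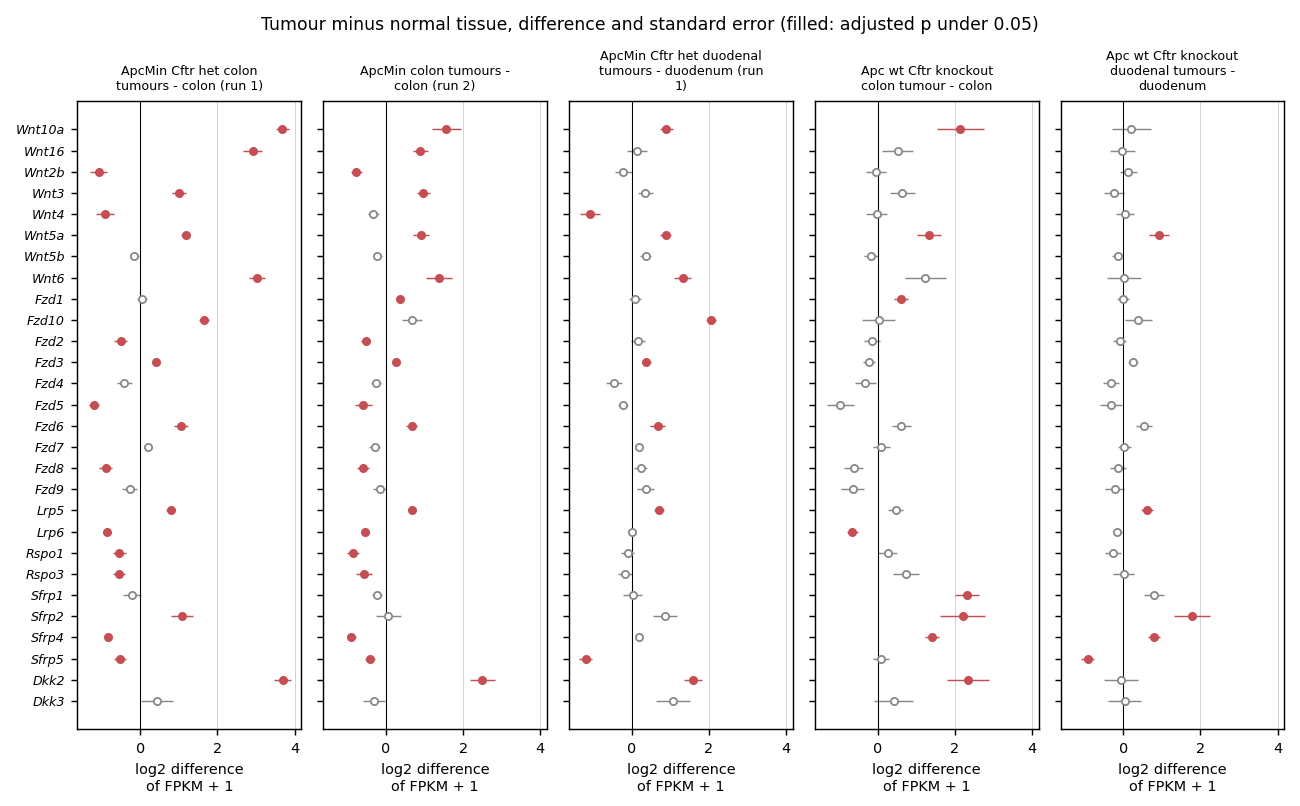
Difference of log2(FPKM + 1) between tumours and normal tissue for 28 members in 5 comparisons, with standard errors. Filled red points passed an adjusted p of 0.05 in limma. Dkk2 passed in 4 of the panels, and the fewest members, 5, passed in the Apc wildtype duodenal tumours.

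In the heterozygous duodenal tumours, set against all normal duodenum in run 1, 10 of 28 members passed, with 8 higher and 2 lower. Of all genes 19% passed, 9.71% higher and 9.26% lower. By the labels these tumours also came from a single animal. Fzd10 had the largest change. Duodenum held 0.109 and 0.216 FPKM in wildtypes and 0.0231 and 0.0733 FPKM in knockouts, and the tumours held 3.79 and 3.28 FPKM. The groups did not overlap, and the rise was 2.05 (SE 0.13) with an adjusted p of 0.00019 in limma, the fourteenth smallest p among all genes tested.

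Dkk2 was at 3.33 and 4.40 FPKM in these tumours and at 0.514 to 0.844 FPKM in duodenum, a rise of 1.59 (SE 0.24) at an adjusted p of 0.00411 in limma. Wnt6 was at 3.75 and 2.26 FPKM against 0.609 to 0.667 FPKM and rose by 1.32 (SE 0.23). Wnt10a was at 1.11 and 0.821 FPKM against 0.0297 to 0.0854 FPKM and rose by 0.90 (SE 0.18). Wnt5a, Lrp5, Fzd6 and Fzd3 also rose, by 0.88, 0.70, 0.67 and 0.38. In each of these genes, which were named because they passed, both tumours lay above all duodenum specimens. The share of all genes that did so was not counted.

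Sfrp5 and Wnt4 fell. Sfrp5 was at 0.816 and 0.459 FPKM in the tumours and at 4.54, 4.41, 1.40 and 1.33 FPKM in duodenum, a change of -1.19 (SE 0.17) at an adjusted p of 0.00337 in limma. Wnt4 was at 1.22 and 1.49 FPKM against 2.48 to 5.64 FPKM, a change of -1.08 (SE 0.25) at 0.0219. Both genes were lower in knockout than in wildtype duodenum, and both tumours lay below both. Of the 38 other pathway genes 16 rose and 2 fell, with the smallest p in Wif1, Rnf43, Ptk7 and Lef1, which rose by 5.25, 1.22, 1.61 and 1.49.

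The call of Fzd6 was lost without either tumour, knockout duodenum 1 or 2 or wildtype duodenum 2, that of Fzd3 without the second tumour or any of those duodena, and that of Wnt4 without either tumour or knockout duodenum 1 (adjusted p 0.0504 to 0.167). Without the second tumour, which held ileum markers, Fzd10 rose by 2.13 and Dkk2 by 1.43, at adjusted p of 0.000671 and 0.0211 in limma. With these tumours and normal duodenum alone in the fit, 4 members passed, where 2.1% of all genes did.

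The change in heterozygous colon tumours was then tested against that in heterozygous duodenal tumours, a test added after the data had been seen. By the labels the tumours of each organ came from a single animal, a different animal for each, so organ and animal cannot be told apart. Of 28 members 8 differed, 4 with the larger change in colon tumours and 4 with the smaller, against 25.3% of all genes, 13% and 12.3%. Wnt10a rose by 2.79 more (SE 0.24) in the colon, Wnt16 by 2.78 more (SE 0.35), Dkk2 by 2.10 more (SE 0.32) and Wnt6 by 1.71 more (SE 0.31). Fzd8, Sfrp4, Fzd5 and Lrp6 changed by -1.13, -1.001, -0.98 and -0.86 relative to the duodenum. Sfrp4 had little room to fall in the duodenum, where normal tissue held 0.0295 to 0.225 FPKM. The adjusted p in limma ran from 0.000561 for Wnt10a to 0.0143 for Fzd8, whose call was lost without either heterozygous colon tumour (0.0568 and 0.0569).

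Apc wildtype mice with Cftr knockout also had tumours. In the 1 colon tumour, set against 2 knockout colon specimens, 8 of 28 members passed, 7 higher and 1 lower. Of all genes 12.8% passed, 7.12% higher and 5.7% lower. The smallest p were those of the decoys Sfrp4 and Sfrp1. Sfrp1 was at 49.6 FPKM in the tumour and at 9.58 and 8.83 FPKM in knockout colon, and the next highest of the 23 specimens had 13.3 FPKM. Sfrp4 was at 4.88 FPKM against 1.17 and 1.24 FPKM, and Sfrp2 at 10.2 FPKM against 1.52 and 1.34 FPKM. The rises were 2.31 (SE 0.31), 1.42 (SE 0.19) and 2.21 (SE 0.58), with adjusted p of 0.000979, 0.00085 and 0.0286 in limma, whose spread came from the other groups.

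Dkk2 rose by 2.34 (SE 0.54), to 8.46 FPKM, and Wnt10a by 2.15 (SE 0.62), from 0.0219 and 0.0213 FPKM to 3.53 FPKM. Wnt5a rose by 1.33 (SE 0.31), to 12.0 FPKM, and Fzd1 by 0.61 (SE 0.19), to 17.8 FPKM. Lrp6 fell by -0.65 (SE 0.15), to 15.9 FPKM. Rspo3 had its highest value of all specimens here, 4.06 FPKM, and did not pass. Among the 38 other pathway genes 6 rose and none fell at an adjusted p under 0.05 in limma, with the smallest p in Wif1, Frzb, Apcdd1 and Gpc4.

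The fibroblast markers summed to 1096 FPKM in this tumour and to 480 and 393.5 FPKM in knockout colon, with none of the 8 at 0. Macrophage markers were at 625 FPKM against 289 and 399.7 FPKM, endothelial markers at 104 against 65.0 and 58.1 FPKM, and smooth muscle markers at 1292 against 2998 and 2379 FPKM. Their part in the changes was not tested. Fewer members passed without knockout colon 1 or without knockout colon 2, where 1 specimen was left on each side. Sfrp1 and Sfrp4 kept their calls in both cases, and Dkk2, Fzd1, Lrp6, Sfrp2, Wnt10a and Wnt5a lost theirs in at least 1 (adjusted p 0.0574 to 0.137).

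In the 2 duodenal tumours of Apc wildtype knockout mice 5 of 28 members passed against knockout duodenum, 4 higher and 1 lower, where 8.16% of all genes passed, 3.94% higher and 4.23% lower. Sfrp2 was at 3.63 and 2.00 FPKM against 0.107 and 0.0519 FPKM, and Sfrp4 at 0.663 and 1.00 FPKM against 0.0688 and 0.0295 FPKM. Lrp5 was at 34.7 and 34.2 FPKM against 20.7 and 23.4 FPKM, and Wnt5a at 5.98 and 3.74 FPKM against 2.06 and 1.98 FPKM. The groups did not overlap in any of the 4, but these were named because they passed. The share of all genes without overlap was not counted. The rises were 1.79 (SE 0.47), 0.80 (SE 0.15), 0.62 (SE 0.16) and 0.93 (SE 0.25), with adjusted p of 0.0351, 0.00685, 0.0308 and 0.0427 in limma.

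Sfrp5 fell, to 0.353 and 0.154 FPKM from 1.40 and 1.33 FPKM, by -0.92 (SE 0.17) at an adjusted p of 0.00490 in limma. Dkk2, Wnt6 and Fzd10, which rose in the heterozygous duodenal tumours, were at 0.899 and 0.186 FPKM, at 1.19 and 0.248 FPKM and at 0.498 and 0.257 FPKM, and did not pass. The tumours differed from each other, with Dkk3 at 15.7 and 4.31 FPKM, Wnt4 at 1.81 and 4.04 FPKM and the pathway inhibitor Notum at 27.9 and 0.116 FPKM. Of the 38 other pathway genes 2 rose, Frzb and Ctnnb1, and 1 fell, Dvl1. Paneth cell markers summed to 12350 and 4075 FPKM in these tumours and to 17750 and 16500 FPKM in knockout duodenum, smooth muscle markers to 594 and 124 against 875 and 867 FPKM, and the 8 epithelial markers to 8414 and 10180 against 6083 and 6664 FPKM. None of these markers was at 0, and their part in the changes was not tested.

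Each of the 5 calls depended on single specimens. Without either knockout duodenum specimen or the first tumour only Sfrp4 and Sfrp5 kept their calls, and without the second tumour only Wnt5a did. The lost calls had adjusted p of 0.0534 to 0.230, and with only the compared groups in the fit none passed. The difference between the changes in colon and duodenal tumours of Apc wildtype mice was tested for every member and 0 passed in limma, where 2.74% of all genes passed. At an unadjusted p under 0.05 there were 9 members and 21.6% of all genes.

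**Figure D4:**
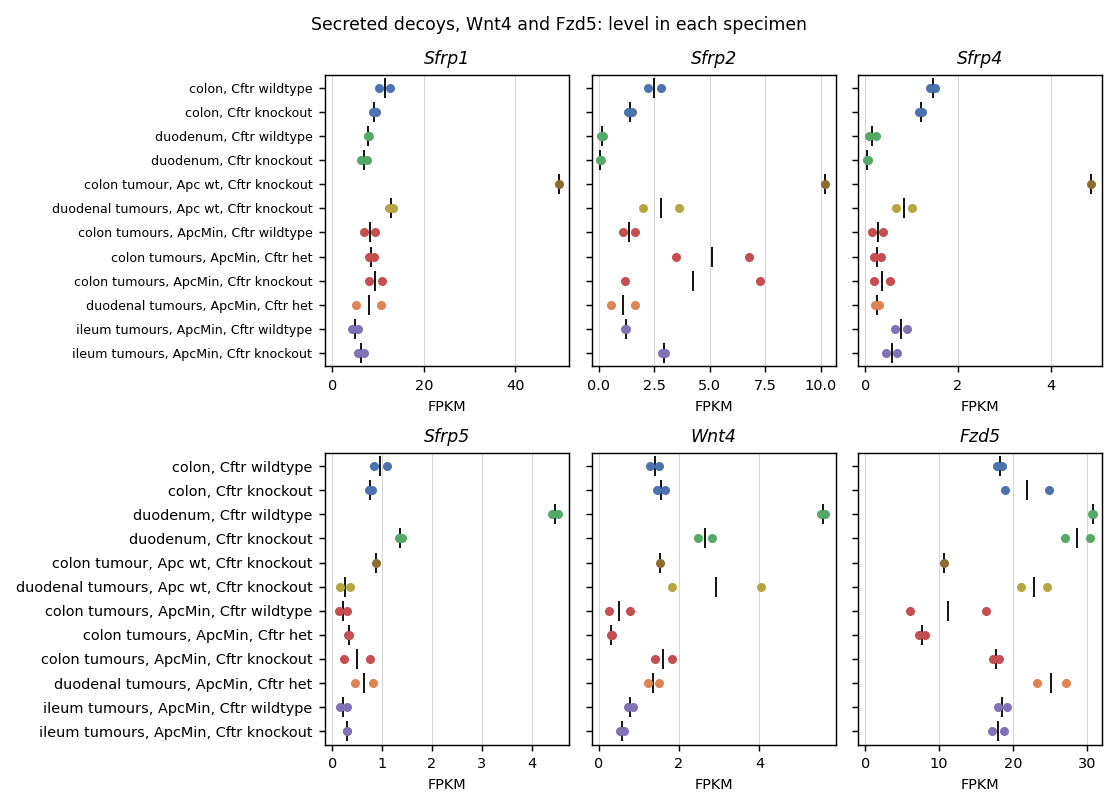
FPKM of the 4 secreted Frizzled-related proteins, Wnt4 and Fzd5 in each of the 12 groups, with points for specimens and a black tick for the group mean. Sfrp1 reaches 49.6 FPKM in the Apc wildtype colon tumour, and Sfrp5 is at 4.54 and 4.41 FPKM in wildtype and 1.40 and 1.33 FPKM in knockout duodenum, a difference that did not pass.

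Cftr genotype, as labelled, was compared within each tissue to ask what goes with Cftr deficiency. No member passed at an adjusted p of 0.05 in limma in any of the 4 comparisons. In colon none of the 28 reached an unadjusted p under 0.05, where 6.72% of all genes did, and 0% of all genes passed after adjustment. The median change was -0.15 over the members and 0.00 over all genes. Wnt2b was at 4.98 and 7.12 FPKM in wildtype and 4.66 and 3.62 FPKM in knockout colon, with the smallest p of the members.

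In duodenum 2 members and 2.61% of all genes reached an unadjusted p under 0.05, and 0% of all genes passed after adjustment. Sfrp5 was at 4.54 and 4.41 FPKM in wildtype and at 1.40 and 1.33 FPKM in knockout duodenum. The change was -1.21 (SE 0.20), the fifth smallest p of all 14098 genes, with an adjusted p of 0.114 in limma. It passed with no filter on low values (0.0290) and with the wildtype specimens counted as 2 (0.00556). Wnt4 was at 5.64 and 5.52 FPKM in wildtype and at 2.82 and 2.48 FPKM in knockout duodenum, a change of -0.85 (SE 0.28) with an unadjusted p of 0.00892 and an adjusted p of 1. The Paneth cell markers were lower in the same specimens, at 17750 and 16500 FPKM in knockouts and 30390 and 29600 FPKM in wildtypes, and their part was not tested. Neither change was shown to differ between duodenum and colon in limma, where 0 members and 0% of all genes passed. For that difference 2 members and 2.23% of all genes had an unadjusted p under 0.05.

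In ApcMin colon tumours 11 of the 28 members had an unadjusted p under 0.05 between Cftr genotypes, against 12.1% of all genes, and 0 passed adjustment, as did 0.0638% of all genes. With lower values in the tumours labelled knockout were Wnt6 (-1.82, SE 0.44), Wnt10a (-1.47, SE 0.50), Dkk2 (-1.47, SE 0.44), Fzd10 (-0.94, SE 0.34), Wnt3 (-0.86, SE 0.26), Wnt16, Wnt5a, Fzd9 and Fzd2, and with higher values Wnt4 (0.81, SE 0.23) and Fzd5 (0.75, SE 0.29). Wnt6 had the smallest adjusted p, 0.181 in limma. The levels of the wildtype tumours lay far apart in several of these genes. The second was nearer the knockout tumours in Wnt6, Wnt10a, Dkk2, Fzd10, Wnt3, Wnt16 and Fzd5, and further from them in Fzd9 and Fzd2.

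Without the second wildtype tumour 9 members passed, 7 lower and 2 higher, where 13.6% of all genes did. They were Wnt10a, Wnt6, Dkk2, Fzd10, Wnt16, Wnt3 and Wnt5a, lower, with adjusted p of 0.00147, 0.00282, 0.00456, 0.0395, 0.0141, 0.0275 and 0.0135 in limma, and Fzd5 and Wnt4, higher, at 0.000859 and 0.0197. Without the second knockout tumour 1 passed, with 0.731% of all genes, Sfrp2, higher by 1.82 at an adjusted p of 0.0412, with levels of 7.26 and 1.21 FPKM in the knockout and 1.64 and 1.08 FPKM in the wildtype tumours. These fits rest on 1 tumour of a genotype, assumed to vary like the other groups. Each genotype's tumours came from 1 animal, so animal and genotype cannot be told apart.

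The tumour-minus-colon change was not shown to differ by Cftr genotype. Of the 28 members 0 passed that test in limma, where 0.00709% of all genes passed. At an unadjusted p under 0.05 there were 4 members and 8.54% of all genes. Without the second wildtype tumour 5 passed (Wnt10a, Wnt6, Wnt16, Dkk2 and Fzd5), with 4.11% of all genes, and without the second knockout tumour 1 (Sfrp2), with 0.589%.

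In ApcMin ileum tumours 0 members and 0.121% of all genes passed between Cftr genotypes in limma. At an unadjusted p under 0.05 there were 2 members and 5.85% of all genes. Fzd10 was at 18.3 and 7.12 FPKM in wildtype and at 4.65 and 2.71 FPKM in knockout tumours, without overlap, a change of -1.45 (SE 0.34) with an adjusted p of 0.1998. Wnt5a was at 10.7 and 8.04 FPKM against 7.37 and 4.83 FPKM. Wnt6 was at 7.96 and 3.31 FPKM in wildtype and at 5.24 and 5.58 FPKM in knockout ileum tumours. The ileum markers (Fabp6 and Slc10a2) summed to 10140 and 7165 FPKM in the wildtype and to 1036 and 65.2 FPKM in the knockout tumours. Their part in these differences was not tested. The difference between the Cftr changes in ileum and colon tumours passed for 0 members and 0% of all genes in limma. For that difference 4 members and 4.795% of all genes had an unadjusted p under 0.05. Without the second wildtype colon tumour 3 passed, Wnt6, Wnt10a and Fzd5, with 2.05% of all genes.

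Organs differed in the normal state. Between normal duodenum and colon 13 of 28 members passed, 3 higher in duodenum and 10 lower, against 55.6% of all genes, 28.5% higher and 27.1% lower. The members' median was -0.41 and that of all genes 0.02. With the animal as a block, since the same animals gave both organs, 23 members passed, 6 higher and 17 lower, where 69% of all genes did. That fit held the normal specimens alone and counted the wildtype duodenum as 2 specimens. Without a block, 21 passed with that count (62.1% of all genes) and 21 in the normal specimens alone (61.9%). All 13 calls held with each specimen left out in turn.

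Higher in duodenum were Wnt3, Wnt4 and Sfrp5. Wnt3 was at 0.588 to 1.53 FPKM in duodenum and under 0.0672 FPKM in colon, a change of 1.01 (SE 0.20) at an adjusted p of 0.00107 in limma. Wnt4 was at 2.48 to 5.64 FPKM against 1.29 to 1.66 FPKM, and Sfrp5 at 1.33 to 4.54 FPKM against 0.736 to 1.09 FPKM. None of the 3, which were named because they passed, overlapped between organs, and the share of all genes without overlap was not counted. The Paneth cell markers summed to 16500 to 30390 FPKM in duodenum and to 579 to 1602 FPKM in colon, and their part in the level of Wnt3 was not tested.

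Lower in duodenum were 5 receptors, 1 co-receptor, 2 decoys and 2 ligands. Fzd1 was at 2.23 to 3.28 FPKM in duodenum and at 11.2 to 13.1 FPKM in colon, a change of -1.78 (SE 0.12) at an adjusted p of 1.728e-07 in limma. Fzd8 was at 0.760 to 1.05 FPKM against 3.86 to 4.75 FPKM, Lrp6 at 10.8 to 13.5 FPKM against 25.1 to 25.6 FPKM, and Sfrp2 at 0.0519 to 0.179 FPKM against 1.34 to 2.79 FPKM. Their changes were -1.47 (SE 0.16), -0.98 (SE 0.10) and -1.39 (SE 0.37). Sfrp4, Fzd2, Wnt2b, Fzd6, Wnt5b and Fzd3 were lower by differences of -1.08, -0.79, -0.72, -0.71, -0.69 and -0.43, with Wnt5b at 0.672 to 0.837 FPKM in duodenum and 1.67 to 2.14 FPKM in colon. The smooth muscle markers summed to 807 to 875 FPKM in duodenum and 2379 to 2998 FPKM in colon, and the fibroblast markers to 156 to 197 and 393.5 to 498 FPKM. Colon was labelled whole tissue and duodenum epithelium, so dissection and organ cannot be told apart. Of the other pathway genes 2 of 38 were higher in duodenum, Dvl1 and Gsk3a, and 14 lower, among them Frzb and the Wnt carrier Wls, which was at 12.5 to 15.5 FPKM in duodenum and 62.6 to 70.0 FPKM in colon.

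Tumours differed by organ too. In ApcMin ileum tumours against ApcMin colon tumours 9 of 28 members passed, 4 higher and 5 lower, against 24.1% of all genes, 13% higher and 11.1% lower. By the labels a single animal of each Cftr genotype gave the tumours of both organs. The fit had no block for the animal and counted its tumours as separate samples. Fzd10 was at 2.71 to 18.3 FPKM in ileum tumours and at 0.245 to 2.52 FPKM in the 4 colon tumours, a change of 1.99 (SE 0.24) at an adjusted p of 9.012e-05 in limma. Dkk3 was at 23.9 to 39.6 FPKM against 8.48 to 19.0 FPKM and rose by 1.21 (SE 0.30). Fzd1 was at 3.28 to 4.93 FPKM against 14.6 to 18.9 FPKM, a change of -1.80 (SE 0.11) at 5.454e-07, close in size to that between normal duodenum and colon.

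Wnt16 was at 0.0679 FPKM or less in ileum tumours and at 0.478 to 2.97 FPKM in colon tumours, a change of -0.98 (SE 0.23) at an adjusted p of 0.00823 in limma. Fzd8, Lrp6 and Sfrp1 differed by -0.73, -0.44 and -0.56 in ileum tumours, while Lrp5 and Sfrp4 were higher by 0.41 and 0.35. The calls of Lrp5, Sfrp1 and Sfrp4 were each lost without at least 1 of the 8 tumours (adjusted p 0.0518 to 0.137). Of the other pathway genes 3 were higher and 6 lower, with the smallest p in Wls, Tcf7l1, Tcf7 and Ror1.

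Between heterozygous duodenal and colon tumours 11 of 28 members passed, 2 higher in the duodenum and 9 lower, against 40.1% of all genes, 19.7% higher and 20.4% lower. By the labels the colon tumours came from a single animal and the duodenal tumours from another, so organ and animal cannot be told apart here. Fzd5 was at 23.2 and 27.2 FPKM in duodenal and at 7.34 and 8.16 FPKM in colon tumours, a change of 1.58 (SE 0.29), and Wnt4 was higher by 0.84 (SE 0.23). Wnt16 was at 0.0513 and 0.187 FPKM against 4.92 and 11.1 FPKM, and changed by -2.92 (SE 0.33) at an adjusted p of 3.654e-05 in limma. Wnt10a, Dkk2, Fzd1 and Wnt6 changed by -2.77, -2.44, -1.70 and -1.60, and Sfrp2, Fzd6, Wnt5a and Fzd3 by -1.54, -1.04, -0.83 and -0.45. Fewer members passed without the second heterozygous colon tumour, which leaves 1 colon tumour in the comparison. The calls of Fzd3, Sfrp2, Wnt4, Wnt5a and Wnt6 were lost without at least 1 of the 4 tumours (adjusted p 0.0523 to 0.160). Of the other pathway genes 3 were higher and 12 lower, with the smallest p in Wls, Apcdd1, Kremen1 and Gsk3a.

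Over the 22 samples, which share runs, animals and organs, 378 pairs of members were compared by Spearman correlation of log2(FPKM + 1). Most alike were Dkk2 and Wnt5a at 0.911, Dkk2 and Fzd6 at 0.883, and the neighbours Wnt6 and Wnt10a at 0.868. Fzd8 with Wnt5b and Fzd6 with Wnt5a followed, tied at 0.867. The other neighbouring pairs were Wnt1 with Wnt10b, 11.7 kb apart, Wnt3a with Wnt9a, 16.2 kb apart, and Wnt3 with Wnt9b, 24.3 kb apart, and in each the second gene was under 1 FPKM everywhere. Wnt2, 140.1 kb from Cftr on chromosome 6, was at 0.114 to 0.477 FPKM over all specimens.

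The untested members were low throughout. Wnt7a, Wnt7b, Wnt8b, Wnt9a, Wnt9b, Wnt10b, Wnt11, Rspo2 and Rspo4 had maxima of 0.586, 0.936, 0.703, 0.599, 0.243, 0.217, 0.885, 0.177 and 0.416 FPKM. Wnt1, Wnt3a, Wnt8a and Dkk1 did not pass 0.0198 FPKM. Dkk4 was at 1.12 and 0.946 FPKM in wildtype duodenum, at 0.561 and 0.265 FPKM in knockout duodenum and at 0.224 FPKM or less elsewhere. Exons of Fzd5, Fzd6, Rspo3, Sfrp2, Wnt5a, Wnt7b and Wnt11 overlap a gene on the other strand, and since strand use in counting is not given, their values may include reads of that gene.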

How the data were processed

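RNA from RNAlater-stored tissue was purified on columns and made into polyadenylated TruSeq libraries, per the labels' protocols. The build mm10 and the tools TopHat2 2.0.13, Cuffnorm and FastQC are listed, without order or role, per the submitters' processing notes. The authors deposited FPKM values in 68 columns, 1 per lane and run, with no counts, so counting error could not be computed, and column sums ran from 476233 to 801309. The design text speaks of colon epithelial cells and of whole duodenum without villi, while the labels say whole tissue for colon and epithelium for duodenum.

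Each specimen's columns were replaced by their mean. The filter kept genes reaching 1 FPKM in 2 or more specimens, and values were taken as log2(FPKM + 1), which understates changes of low genes, and fitted with limma 3.58.1 in R 4.3.3 (lmFit, eBayes with a trend) and Benjamini-Hochberg adjustment over 14098 genes at 0.05, all groups in 1 fit. Heterozygous tumours against normal tissue used run 1 columns, and the other ApcMin colon tumours used run 2. The smallest two-sided p of an exact permutation of 2 against 2 is 0.333. Deviations of colon and duodenum of the same animals correlated at 0.0332 in knockouts and 0.0103 in wildtypes. The changes, SE and adjusted p given between normal duodenum and colon come from a fit without pairing. Since those specimens share the animal, a fit with the animal as a block was run as an alternative. It held the normal specimens alone and counted the wildtype duodenum as 2 specimens.

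Every member called, or at 3 FPKM or more in a group mean, is named, with up to 4 genes a comparison from the list of other pathway genes. Members, lists and rules were chosen with earlier results of these data known. The fits were tested on simulated data. A list of colon markers is not reported here. Alternatives tried were quantile normalization, no filter, a pseudocount of 0.1, the compared groups alone, single runs, the wildtype duodenum as 2 specimens, replicate blocks, each specimen left out, and the run 1 library of wildtype colon 2, which held small-intestinal transcripts, left out. The 5 tests of differences between changes were added after seeing the data. Positions come from the GENCODE annotation of GRCm38 (mm10).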

Additional observations from a re-analysis of the deposited data

Results flagged for a closer look

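The change from normal tissue to heterozygous ApcMin tumour differed between colon and duodenum for 8 of 28 members, where 25.3% of all genes did, by a test of the difference itself in limma (run 1, colon minus duodenum, log2 of FPKM + 1). By the labels these colon tumours came from a single animal and the duodenal tumours from another, so organ and animal cannot be told apart. The second duodenal tumour held ileum markers at a summed 13910 FPKM. The difference was 2.79 for Wnt10a (SE 0.24, adjusted p 0.000561), 2.78 for Wnt16 (SE 0.35, adjusted p 0.00251), 2.10 for Dkk2 (SE 0.32, adjusted p 0.00457) and 1.71 for Wnt6 (SE 0.31, adjusted p 0.00748). It was -1.13 for Fzd8 (SE 0.24, adjusted p 0.0143), -1.001 for Sfrp4 (SE 0.14, adjusted p 0.00384), -0.98 for Fzd5 (SE 0.19, adjusted p 0.00891) and -0.86 for Lrp6 (SE 0.14, adjusted p 0.00513). Smooth muscle markers fell from 2379 to 2998 FPKM in colon to 561 and 757 FPKM in these colon tumours, and from 807 to 875 FPKM in duodenum to 467 and 636 FPKM in the duodenal tumours. Normal duodenum held Sfrp4 at 0.0295 to 0.225 FPKM, against 1.17 to 1.51 FPKM in colon, which left little room for a fall in duodenal tumours. The part of muscle and of the starting level in the differences of Fzd8, Sfrp4 and Lrp6 was not tested. The call of Fzd8 was lost without the first or the second heterozygous colon tumour, at adjusted p of 0.0568 and 0.0569.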

How the results depend on the processing

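No call of a named member changed sign in any alternative run. Of the single-member calls, 99 held and 5 were lost at a pseudocount of 0.1, 97 and 7 with quantile normalization, 96 and 8 with no filter, 82 and 22 with the compared groups alone, 79 and 6 without the run 1 library of wildtype colon 2 (Fzd2, Rspo3 and Sfrp5 in heterozygous colon tumours, Fzd3 and Fzd6 in heterozygous duodenal tumours and Fzd1 in the Apc wildtype colon tumour), and 587 and 103 over all specimens left out. With no filter 3 members passed in the Apc wildtype duodenal tumours, where 6.25% of all genes did. With the compared groups alone 0 passed there and 4 in heterozygous duodenal tumours, with 1.53% and 2.1% of all genes. In that setting 1 (Sfrp2) passed between Cftr genotypes in ileum tumours, with 0.851% of all genes, and 21 between duodenum and colon, with 61.9%. Between Cftr genotypes in duodenum 1 member passed with no filter, with the wildtype duodenum as 2 specimens, and with the number as a replicate block. Of all genes 0.151%, 0.22% and 0.213% passed in those settings. The number of members passing between duodenum and colon was 21 with the wildtype duodenum as 2 specimens, 21 with the number as a replicate block and 23 with the animal as the block, and the block ended no other call. The shares of all genes passing there were 62.1%, 63.1% and 69%. Every fit with a block, also that between Cftr genotypes, counted the wildtype duodenum as 2 specimens. What the block adds therefore cannot be told apart from that count. Normal colon and duodenum of one number share an animal, also in the difference of Cftr changes between them, where the block called 0 members. ApcMin ileum and colon tumours of one Cftr genotype all share 1 animal, so their numbers pair nothing further. In the Apc wildtype colon comparison no pairing was possible, because by the labels the tumour and the knockout colon came from different animals. The difference between Apc wildtype colon and duodenal tumour changes holds specimens that share animals and was fitted without a block.

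Leaving out 1 specimen gave 0 to 9 members between Cftr genotypes in ApcMin colon tumours, 1 to 2 in Apc wildtype duodenal tumours, 2 to 3 in the Apc wildtype colon tumour and 7 to 11 between heterozygous duodenal and colon tumours. It gave 0 to 5 for the difference of colon tumour changes by Cftr genotype and 0 to 3 for the difference of Cftr changes between ileum and colon tumours. The difference between Apc wildtype colon and duodenal tumour changes passed for 0 members in the fit reported. It passed for 1 at a pseudocount of 0.1, with no filter, with quantile normalization and in run 2 (2.06%, 3.06%, 2.14% and 2.58% of all genes). It passed for 2 in run 1 and with the wildtype duodenum as 2 specimens (5.53% and 5.07%), and for 4 with the compared groups alone (4.85%). The causes were not tested. FPKM without counts leaves the precision of genes under about 1 FPKM unknown.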
